A study of Saccharomyces cerevisiae with 6 samples.

Results

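The 10 genes of trehalose metabolism were followed in the budding yeast Saccharomyces cerevisiae, in cultures of the actin mutant R256C (arginine replaced by cysteine) and of a wild-type (WT) strain, out of 7126 gene rows counted in all. The genes are those of 3 steps of the pathway, taken by name, with earlier results of these data known: the synthase complex (TPS1, TPS2, TPS3, TSL1), the trehalases (NTH1, NTH2, ATH1) and the enzymes that supply its substrate (PGM1, PGM2, UGP1). All 10 had reads in every library and were among the 6337 rows with enough reads to test. The labels give S288C as the background of both strains and no treatment. Each strain was grown as 3 biological replicates in the rich medium YPD at 30 °C, diluted to an optical density of 0.3 and harvested at 0.9. The sources used here do not say whether R256C is 1 isolate or several, or how the mutation was introduced. An unrelated difference carried by the R256C strain and an effect of the actin change cannot be told apart. The p-values measure the spread between these cultures. The comparison of R256C with WT asks which mRNA levels differ in the strain with this actin.

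Trehalose is a sugar of a pair of linked glucose units that yeast builds up under heat, starvation and other stress, when it protects proteins and membranes, and that it breaks down when growth resumes. Phosphoglucomutase (PGM1, PGM2) turns glucose-6-phosphate into glucose-1-phosphate, and UGP1 turns that into UDP-glucose. Tps1 joins UDP-glucose and glucose-6-phosphate into trehalose-6-phosphate, and Tps2 removes the phosphate, while Tps3 and Tsl1 are related to them and act as regulatory subunits. Trehalose-6-phosphate also inhibits hexokinase, so that Tps1 takes part in the control of glucose entry into glycolysis. Nth1 is the main neutral trehalase of the cytosol, Nth2 is its paralogue, and Ath1 is the acid trehalase needed for growth on trehalose from outside. Many of these genes carry stress response elements, which are bound by the transcription factors Msn2 and Msn4.

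The stretches upstream of 5 of the genes show how unevenly these elements are placed, and are given because these genes differ both in their elements and in their values (RefSeq, R64, 5′ to 3′, on the strand of the gene). Capitals mark the core of the stress response element, AGGGG or its complement CCCCT, and the core of a heat shock element, TTCNNGAA. Each stretch is the run of 300 bases, between 500 and 101 bases before the start codon, with the most AGGGG cores. The stretch of TPS1 is chrII:490565-490864 (minus strand), that of TPS2 chrIV:593403-593702 (plus), that of TSL1 chrXIII:70224-70523 (plus), that of UGP1 chrXI:369408-369707 (plus) and that of NTH2 chrII:241384-241683 (minus).
TPS1: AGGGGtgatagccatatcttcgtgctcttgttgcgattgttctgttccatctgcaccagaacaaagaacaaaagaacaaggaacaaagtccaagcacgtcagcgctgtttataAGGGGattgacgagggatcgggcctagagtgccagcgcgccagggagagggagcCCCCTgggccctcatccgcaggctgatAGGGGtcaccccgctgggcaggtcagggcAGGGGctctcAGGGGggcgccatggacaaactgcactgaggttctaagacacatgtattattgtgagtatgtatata
TPS2: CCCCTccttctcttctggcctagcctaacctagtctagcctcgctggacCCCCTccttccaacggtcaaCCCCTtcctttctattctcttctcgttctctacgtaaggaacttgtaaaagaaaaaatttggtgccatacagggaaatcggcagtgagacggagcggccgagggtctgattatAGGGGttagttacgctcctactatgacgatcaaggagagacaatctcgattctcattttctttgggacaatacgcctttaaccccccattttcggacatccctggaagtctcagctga
TSL1: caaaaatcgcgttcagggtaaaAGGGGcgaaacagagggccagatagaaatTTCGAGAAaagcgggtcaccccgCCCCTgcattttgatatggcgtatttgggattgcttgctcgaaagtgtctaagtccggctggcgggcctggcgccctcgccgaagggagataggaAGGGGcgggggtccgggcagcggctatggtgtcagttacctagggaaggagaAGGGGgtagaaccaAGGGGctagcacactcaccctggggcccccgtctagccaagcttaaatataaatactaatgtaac
UGP1: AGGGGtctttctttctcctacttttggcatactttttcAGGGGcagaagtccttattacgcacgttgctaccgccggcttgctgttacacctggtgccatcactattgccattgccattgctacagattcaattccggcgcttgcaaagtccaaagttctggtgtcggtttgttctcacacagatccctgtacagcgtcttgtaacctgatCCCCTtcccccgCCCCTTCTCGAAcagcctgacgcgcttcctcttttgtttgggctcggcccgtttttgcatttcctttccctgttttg
NTH2: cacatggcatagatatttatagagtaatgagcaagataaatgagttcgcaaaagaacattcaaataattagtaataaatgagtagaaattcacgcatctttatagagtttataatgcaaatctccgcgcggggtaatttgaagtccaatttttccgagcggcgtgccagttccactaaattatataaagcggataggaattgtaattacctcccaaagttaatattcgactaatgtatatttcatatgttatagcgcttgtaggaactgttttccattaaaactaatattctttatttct

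Within 500 bases before the start codon, TPS1 held 6 AGGGG cores on either strand, TSL1 and PGM2 held 5 each, and TPS2 and UGP1 held 4 each. NTH1 and PGM1 held 3 each, TPS3 held 2, ATH1 held 1 and NTH2 held 0. At least 1 core was thus found for 9 of the 10 genes and at least 4 for 5 of them, where 34.1% and 0.45% of all 6000 nuclear coding genes with such a stretch had as many. Some cores lie inside a neighbour: all 4 of UGP1 are in the gene AIM26, 2 of the 3 of PGM1 in a transfer RNA gene (YNCK0007W), 2 of the 5 of TSL1 in YML100W-A and 1 of the 6 of TPS1 in MEO1. The heat shock core was present before TPS1 (nearer the start codon than the stretch shown), TSL1 and UGP1, 3 of 10 genes against 21.2% of all genes, and that of UGP1 shares a T with the last AGGGG core. A match is a run of letters and does not show that a factor bound there.

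**Figure D1:**
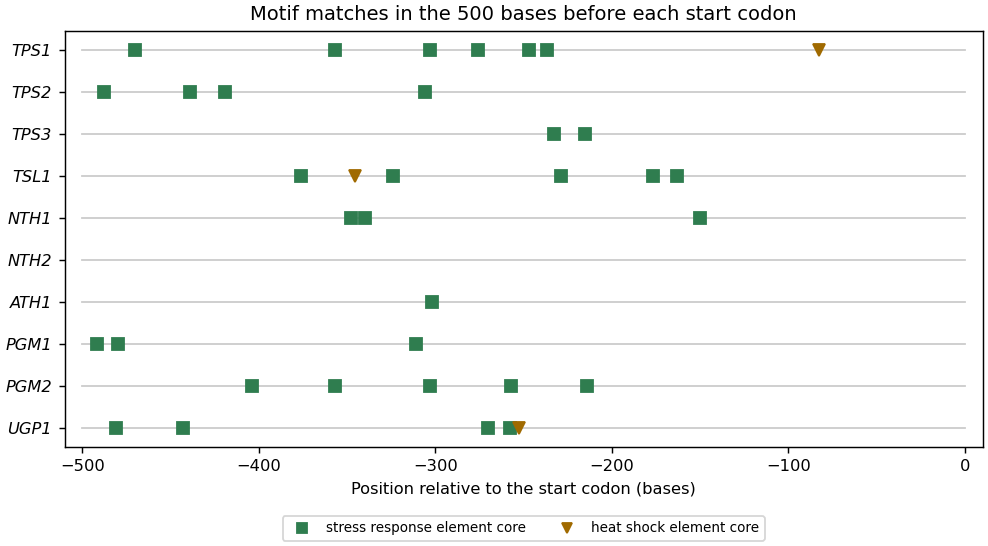
Positions of the stress response element core (squares) and the heat shock element core (triangles) in the 500 bases before the start codon of each gene, in bases relative to that codon. TPS1 holds 6 squares, TSL1 and PGM2 hold 5, and NTH2 holds none.

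The 6 libraries held 8967232 to 16905818 reads in genes. WT replicate 2 stood apart: log2 CPM correlated at 0.977 and 0.987 with the other WT libraries, which correlated at 0.993 with each other, and R256C libraries correlated at 0.993 to 0.994 with each other. R256C replicate 2 was not apart over all genes, but it was the highest R256C library for 9 of the 10 trehalose genes, against 34.1% of all genes tested. WT replicate 2 was the lowest WT library for 7 of the 10, against 47.1% of all genes tested. Calls of named genes that were lost without these libraries are therefore stated below. The size of a change can also move where the call held, and is given without these libraries for some genes alone. LEU2, URA3 and MET15 had 0 reads in all 6 libraries and HIS3 had 1239 or more in each, so these marker genes did not differ between strains in being present or absent. Of the 4 marker genes with reads tested, ADE2, of adenine synthesis, was lower in R256C (log2 fold change -0.95, edgeR adjusted p = 0.00143).

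In R256C the mRNAs of the catalytic subunits of trehalose synthesis and of TPS3 rose, and that of UGP1 fell. Those of TSL1, the trehalases and the phosphoglucomutases did not pass the test. The call of UGP1 was lost in 3 of 15 alternative fits and that of TPS3 in 1. Of the 10 genes, 3 rose (TPS1, TPS2 and TPS3) and 1 fell (UGP1) at an adjusted p under 0.05 by edgeR's quasi-likelihood test with Benjamini-Hochberg adjustment over all genes. That is beside 42.7% of all 6337 genes tested that passed, 21.2% higher and 21.4% lower, so 4 of 10 is near the background share. The median log2 fold change of the 10 genes was 0.080, against -0.012 over all genes tested. In 5 of the 10 genes the libraries of the strains did not overlap, where this held for 54.9% of all genes: 4 lay higher in R256C (27.7% of all genes) and 1, UGP1, lower (27.3%). The values are shares of the mRNA pool of a culture, in which a change in every cell and a change in the share of cells expressing a gene cannot be told apart.

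**Figure D2:**
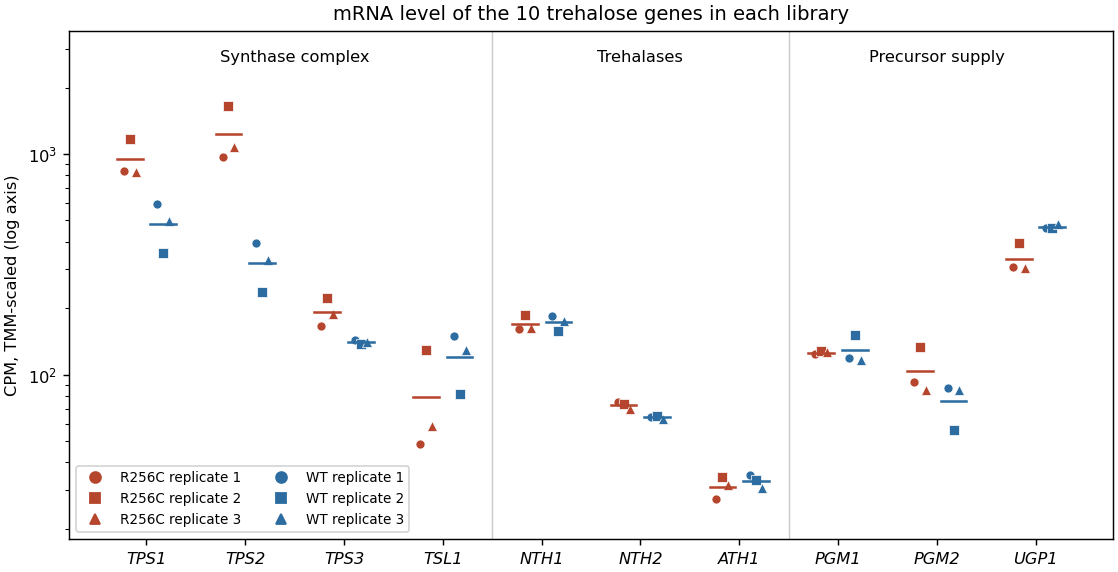
CPM of each gene in each library on a log axis, R256C left of WT, with horizontal lines at the means and 1 symbol per replicate. TPS1, TPS2, TPS3 and, by little, NTH2 lie higher in all R256C libraries than in any WT library, and UGP1 lies lower. R256C replicate 2 (squares) is the highest of its strain for 9 genes.

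TPS2 (YDR074W, chromosome IV, 593893 to 596583), the trehalose-6-phosphate phosphatase, had the largest change of the 10. It was at 972, 1658 and 1080 CPM (reads scaled to a common library size by TMM) in R256C replicates 1, 2 and 3, against 394, 238 and 331 CPM in WT replicates 1, 2 and 3. Every R256C library lay above every WT library, and replicate 2 was the extreme library in both strains, high in R256C and low in WT. The means were 1237 ± 369 CPM in R256C and 321 ± 79.0 CPM in WT (SD, n = 3 each), a 3.85-fold rise (log2 fold change 1.95, SE 0.25, edgeR adjusted p = 0.000611). Without replicate 2 of both strains the log2 fold change was 1.50, and the gene passed in all 15 alternatives tried.

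TPS1 (YBR126C, chromosome II, 488905 to 490392), the synthase itself, was at 833, 1175 and 829 CPM in the R256C libraries, against 594, 357 and 495 CPM in the WT libraries. The strains did not overlap, and here too replicate 2 was highest in R256C and lowest in WT. The means were 946 ± 199 CPM in R256C and 482 ± 119 CPM in WT (SD, n = 3 each), a 1.96-fold rise (log2 fold change 0.97, SE 0.22, edgeR adjusted p = 0.00770). Without replicate 2 of both strains it was 0.61, which still passed. A row with no entry in the annotation used here, YBR126W-B, shares part of its name with TPS1 and had 0 to 6 reads. Its position was not used here.

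TPS3 (YMR261C, chromosome XIII, 790205 to 793369), a regulatory subunit, was at 166, 223 and 188 CPM in R256C, against 143, 138 and 140 CPM in WT. The WT libraries lay close together and all R256C libraries lay above them. The rise was 1.37-fold (log2 fold change 0.45, edgeR adjusted p = 0.0139, SE 0.12), and without WT replicate 3 it was as large but did not pass (0.45, adjusted p = 0.0532).

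TSL1 (YML100W, chromosome XIII, 70624 to 73920), the other regulatory subunit and the paralogue of TPS3, did not pass the test in either direction. It was at 48.6, 129 and 58.6 CPM in R256C, against 150, 81.5 and 129 CPM in WT. R256C replicates 1 and 3 were below every WT library, while R256C replicate 2 was at the level of WT replicate 3 and 2.41 times the mean of the other R256C libraries. With all 6 libraries the log2 fold change was -0.60 (95% interval -1.42 to 0.22, edgeR adjusted p = 0.206). TSL1 passed as lower without R256C replicate 2 (-1.16, edgeR adjusted p = 0.0174), without WT replicate 2 (-0.82, 0.0165) and without both (-1.38, 3.9e-07), and the range over 15 alternatives was 3.9e-07 to 0.491. The call for TSL1 thus turns on replicate 2, while its log2 fold change was negative in all 15.

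**Figure D3:**
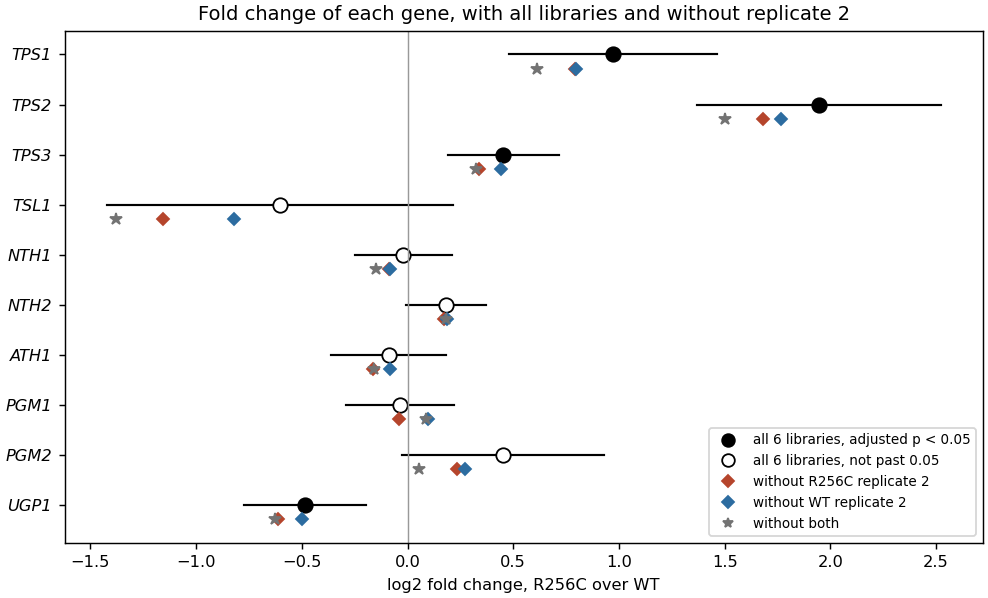
Log2 fold change of each gene, R256C over WT, with its 95% interval from all 6 libraries (circles, filled where the adjusted p was under 0.05) and the values without replicate 2 of R256C, of WT or of both (diamonds and stars). TPS2 is at 1.50 or above in each, while TSL1 moves between -0.60 and -1.38.

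The make-up of the complex at the mRNA level was compared in CPM per kb of coding length. TPS2 was 36.6, 40.7 and 38.8% of the summed level of the 4 genes in R256C, against 23.0, 22.3 and 22.8% in WT. TSL1 was 1.49, 2.59 and 1.72% in R256C, against 7.12, 6.24 and 7.28% in WT. In neither gene did the strains overlap, and replicate 2 stood with its own strain. The summed level itself was 988, 1516 and 1036 CPM per kb in R256C, against 637, 397 and 539 in WT. A share falls where the sum rises, so the low TSL1 share is not by itself a fall of TSL1. TSL1 was at 14.8, 39.3 and 17.8 CPM per kb in R256C, against 45.4, 24.7 and 39.2 in WT, and these overlap. The shares of TPS1 and TPS3 were lower in R256C although both genes rose. TPS1 was 54.2 ± 2.30% in R256C and 61.6 ± 1.12% in WT, and TPS3 was 5.23 ± 0.542% in R256C and 8.77 ± 2.01% in WT (SD, n = 3 each). All 4 shares gave p = 0.1 in two-sided exact permutation tests (Benjamini-Hochberg adjusted 0.1 over the 4), the smallest value that 3 against 3 libraries allow. The shares of 1 complex sum to 100%, so they are not separate results.

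**Figure D4:**
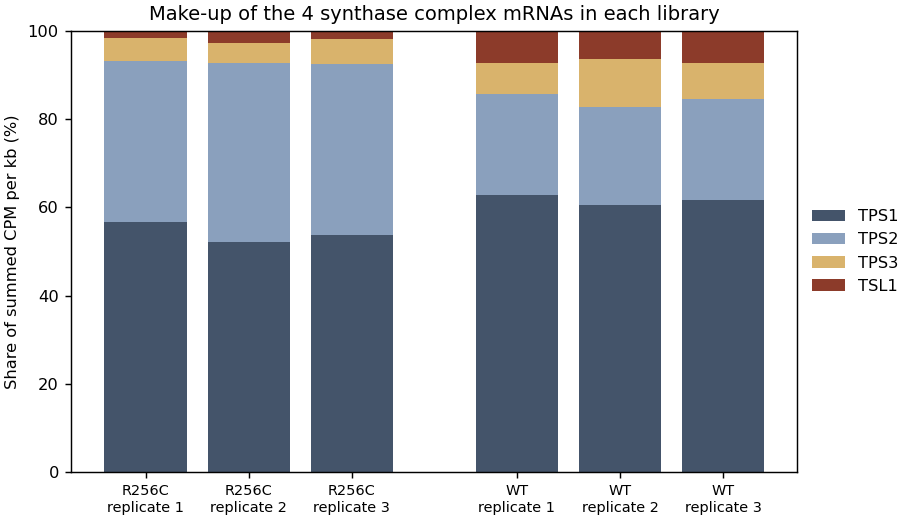
Share of each of the 4 synthase complex genes in their summed CPM per kb of coding length, in percent, for each library (stacked bars, R256C left, WT right). TPS2 takes 36.6 to 40.7% in R256C against 22.3 to 23.0% in WT, and TSL1 takes 1.49 to 2.59% against 6.24 to 7.28%.

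The ratio of TSL1 to TPS3, a gene that rose, sets TSL1 against its paralogue alone and, like the shares, is free of library scaling. It was 0.282, 0.557 and 0.300 in R256C, against 1.00, 0.567 and 0.886 in WT (reads per kb). The highest R256C library, replicate 2, lay just below the lowest WT library, also replicate 2. The log2 difference was -1.14 (two-sided exact permutation p = 0.1, the smallest possible, and 0.2 adjusted over the 4 ratios compared), and it ranged from -1.45 to -0.96 when 1 library was left out. The coding sequences of the pair are 66.2% identical and their longest shared run is 15 bases.

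None of the 3 trehalase genes passed the test. NTH1 (YDR001C, chromosome IV, 450220 to 452475) was at 162, 187 and 162 CPM in R256C, against 185, 157 and 176 CPM in WT, and the libraries of the strains were intermixed. Its log2 fold change was -0.019 (95% interval -0.25 to 0.21, edgeR adjusted p = 0.890). ATH1 (YPR026W, chromosome XVI, 615379 to 619014) was at 27.2, 34.2 and 31.5 CPM in R256C, against 34.9, 33.3 and 30.5 CPM in WT (log2 fold change -0.089, 95% interval -0.36 to 0.18, edgeR adjusted p = 0.575). Scaled by library totals alone, the log2 fold change was 0.072 for NTH1 and 0.0089 for ATH1, so neither sign held.

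NTH2 (YBR001C, chromosome II, 238941 to 241283) was at 75.0, 73.9 and 69.5 CPM in R256C, against 64.6, 65.0 and 63.2 CPM in WT. All R256C libraries lay above all WT libraries, by little, as in 27.7% of all genes tested. The log2 fold change was 0.18 (95% interval -0.0084 to 0.37, edgeR adjusted p = 0.111), and it passed only where libraries were scaled by their totals alone (0.28, adjusted p = 0.0430). The ratio of NTH1 to NTH2 was 2.43 ± 0.193 in R256C and 2.79 ± 0.244 in WT (SD, n = 3 each, reads per kb), a log2 difference of -0.20 (two-sided exact permutation p = 0.2, 0.267 adjusted over 4 ratios). Their coding sequences are 72.4% identical, with a longest shared run of 33 bases; the sources used here give no read length.

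Synthesis and breakdown were set against each other within each library. The summed level of the 4 synthase complex genes over that of NTH1 and NTH2, in reads per kb, was 9.53, 13.3 and 10.2 in R256C, against 5.82, 4.07 and 5.14 in WT. Every R256C ratio was above every WT ratio. The ratio was 2.20-fold higher in R256C (log2 difference 1.13, two-sided exact permutation p = 0.1, the smallest possible, and 0.2 adjusted over 4 ratios). Without replicate 2 of both strains the log2 difference was 0.85. TPS1 and TPS2 were 54.2 and 38.7% of the summed synthase level in R256C, and 61.6 and 22.7% in WT. The ratio therefore mostly restates the rise of TPS1 and TPS2 and is not a separate result. ATH1 was not part of it. The measure is of mRNA, and enzyme activity and trehalose itself were not measured in these files.

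Of the 3 genes that supply UDP-glucose, UGP1 fell and neither phosphoglucomutase gene passed. UGP1 (YKL035W, chromosome XI, 369891 to 371390), the UDP-glucose pyrophosphorylase, was at 306, 393 and 304 CPM in R256C, against 463, 461 and 482 CPM in WT. All R256C libraries were below all WT libraries, and R256C replicate 2 was the nearest to WT. The means were 335 ± 50.9 CPM in R256C and 468 ± 11.4 CPM in WT (SD, n = 3 each), and the log2 fold change was -0.49 (edgeR adjusted p = 0.0150, SE 0.13). Without R256C replicate 1 (-0.43, edgeR adjusted p = 0.0668), R256C replicate 3 (-0.42, 0.0812) or WT replicate 3 (-0.47, 0.0599) it did not pass.

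PGM2 (YMR105C, chromosome XIII, 475897 to 477606), the major phosphoglucomutase, was at 93.0, 134 and 84.9 CPM in R256C, against 87.2, 56.1 and 85.0 CPM in WT. R256C replicate 3 and WT replicate 3 were at the same level, and replicate 2 was high in R256C and low in WT. The log2 fold change was 0.45 (95% interval -0.028 to 0.93, edgeR adjusted p = 0.116), and 0.053 without replicate 2 of both strains. PGM1 (YKL127W, chromosome XI, 203541 to 205253), the minor form, was at 123, 128 and 126 CPM in R256C, against 119, 151 and 116 CPM in WT (log2 fold change -0.035, 95% interval -0.29 to 0.22, edgeR adjusted p = 0.821), and its value was 0.070 with library totals alone and 0.094 without WT replicate 2. The ratio of PGM2 to PGM1 was 0.826 ± 0.197 in R256C and 0.613 ± 0.208 in WT (SD, n = 3 each, reads per kb; log2 difference 0.47, two-sided exact permutation p = 0.4 and 0.4 adjusted over 4 ratios), and -0.039 without replicate 2 of both strains. Major and minor refer to the enzymes. At the mRNA level the PGM1 mean was the higher in R256C (73.4 against 60.7 CPM per kb) and in WT (75.1 against 44.5).

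Per kb of coding length, TPS1 was the most abundant of the 10 mRNAs and ATH1 the least in both strains. In R256C the order was TPS1 (636 ± 133 CPM per kb), TPS2 (460 ± 137), UGP1 (223 ± 33.9), NTH1 (75.5 ± 6.34), PGM1 (73.4 ± 1.24), TPS3 (60.7 ± 9.14), PGM2 (60.7 ± 15.2), NTH2 (31.1 ± 1.23), TSL1 (23.9 ± 13.4) and ATH1 (8.52 ± 0.965, SD, n = 3 each). Neighbours whose R256C libraries overlapped were TPS1 and TPS2, NTH1 and PGM1, TPS3 and PGM2, and NTH2 and TSL1. In WT the order was TPS1 (324 ± 80.1 CPM per kb), UGP1 (312 ± 7.62), TPS2 (119 ± 29.3), NTH1 (76.6 ± 6.18), PGM1 (75.1 ± 11.2), PGM2 (44.5 ± 10.1), TPS3 (44.4 ± 0.788), TSL1 (36.4 ± 10.6), NTH2 (27.4 ± 0.406) and ATH1 (9.05 ± 0.621, SD, n = 3 each). Overlapping neighbours there were TPS1 and UGP1, NTH1 and PGM1, PGM2 and TPS3, TPS3 and TSL1, and TSL1 and NTH2. UGP1 thus stood level with TPS1 in WT and below TPS2 in R256C.

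Glycogen is the other glucose store made from UDP-glucose. Of 10 genes of glycogen metabolism, 4 rose, 1 fell and 5 did not pass (median log2 fold change 0.21). Over all genes tested, 21.2% rose and 21.4% fell. GSY2, the main glycogen synthase, was at 190, 331 and 210 CPM in R256C, against 109, 84.6 and 106 CPM in WT (log2 fold change 1.29, SE 0.21, edgeR adjusted p = 0.00172). GSY1, the second synthase, was at 66.6, 161 and 69.6 CPM in R256C, against 41.9, 33.6 and 46.7 CPM in WT (1.29, SE 0.33, edgeR adjusted p = 0.0137; 0.63 without replicate 2 of both strains). Neither gene's libraries overlapped between strains, and replicate 2 was again highest in R256C and lowest in WT. GAC1 (1.27), which targets a phosphatase to glycogen synthase, and PIG2 (0.35, edgeR adjusted p = 0.0366), which has a like role, rose too. The call of PIG2 was lost without R256C replicate 1 (0.0583), 2 (0.0969) or 3 (0.130), WT replicate 3 (0.118) or replicate 2 of both strains (0.0626). GLG2, 1 of the 2 glycogenins that prime the polymer, fell (-0.57, edgeR adjusted p = 0.0333), a call lost when any library but WT replicate 2 was left out (0.0608 to 0.113). R256C replicate 2 was the highest R256C library for 7 of the 10 glycogen genes, against 34.1% of all genes tested. WT replicate 2 was the lowest WT library for 8, against 47.1%. Without WT replicate 2, 2 glycogen genes fell, beside 29.5% of all genes tested in that setting.

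Of 7 genes of glucose phosphorylation and entry into glycolysis, 2 rose and 0 fell (median 0.085) by edgeR. The shares over all genes tested were 21.2% higher and 21.4% lower. PFK2, of phosphofructokinase, was lower at an unadjusted p under 0.05 (-0.29, edgeR adjusted p = 0.0676), and 1 gene fell by DESeq2. Without WT replicate 2, and likewise without replicate 2 of both strains, 3 rose and 2 fell. Of all genes tested, 29.4% rose and 29.5% fell in the former setting, and 26.9% and 27.4% in the latter. HXK2, the main hexokinase in glucose and a target of trehalose-6-phosphate inhibition, was at 2194, 1569 and 1741 CPM in R256C, against 719, 1307 and 814 CPM in WT (log2 fold change 0.95, SE 0.24, edgeR adjusted p = 0.0141). In HXK2 replicate 2 was the lowest library in R256C and the highest in WT, opposite to TPS1. EMI2, a paralogue of the glucokinase gene GLK1, rose by 0.85 (edgeR adjusted p = 0.0262). Both calls were lost without R256C replicate 1 (0.0616 for HXK2 and 0.0665 for EMI2) or WT replicate 3 (0.0666 and 0.0630), and that of EMI2 without R256C replicate 2 (0.102). Of 7 other users of UDP-glucose, 1 rose and 1 fell (median -0.070), beside 21.2% higher and 21.4% lower of all genes tested. Without WT replicate 1, 2 were higher (21.1% of all genes tested), and without WT replicate 2, 2 were lower (29.5%). The glucan synthase genes FKS1, GSC2 and FKS3 did not pass with all 6 libraries. The gene that rose was GAL7 (0.94), for galactose use, and GAL10 (-0.38, edgeR adjusted p = 0.0401), of the same pathway, fell, a call lost when any library but WT replicate 2 was left out (0.0968 to 0.119).

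Neutral trehalase is switched on by protein kinase A together with the 14-3-3 proteins Bmh1 and Bmh2. Of 11 genes of protein kinase A and of trehalase regulation, 4 rose, 1 fell and 6 did not pass (median 0.26). Over all genes tested, 21.2% rose and 21.4% fell. The number that rose was 3 without WT replicate 1. It was 2 without R256C replicate 2, R256C replicate 3 or WT replicate 3, where 14.9, 14.4 and 13.7% of all genes rose. The number that fell was 0 without R256C replicate 1, R256C replicate 3 or WT replicate 3, where 15.1, 12.9 and 13.5% of all genes fell. The kinase subunit gene TPK2 was at 103 ± 6.61 CPM in R256C and 53.3 ± 6.73 CPM in WT (SD, n = 3 each), a log2 fold change of 0.95 (edgeR adjusted p = 0.000389, SE 0.11). DCS1, a gene of mRNA cap breakdown also known as a negative regulator of trehalase, was at 84.3, 108 and 81.0 CPM in R256C, against 43.0, 41.8 and 41.8 CPM in WT (1.11, SE 0.12, edgeR adjusted p = 0.000276). Both genes passed in all 15 alternatives. The inhibitory subunit gene BCY1 (0.27) rose, and CYR1 (-0.48), the adenylate cyclase gene, fell. The call of CYR1 (edgeR adjusted p = 0.0249) was lost without R256C replicate 1 (0.0962), R256C replicate 3 (0.0883) or WT replicate 3 (0.0863). The call of BCY1 (0.0402) was lost without R256C replicate 2 (0.132) or 3 (0.135) or WT replicate 1 (0.0805) or 3 (0.148).

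Of 6 regulators of the stress response, 2 rose and 1 fell (median 0.069), beside 21.2% higher and 21.4% lower of all genes tested. Of the 6, 3 fell without WT replicate 2 (29.5% of all genes tested) or without replicate 2 of both strains (27.4%). MSN4 was at 295, 333 and 288 CPM in R256C, against 130, 62.0 and 102 CPM in WT (log2 fold change 1.64, edgeR adjusted p = 0.000883, SE 0.23). GIS1, a related factor of nutrient limitation, was at 179, 240 and 205 CPM in R256C, against 97.8, 82.1 and 95.9 CPM in WT (1.18, SE 0.13, edgeR adjusted p = 0.000246). MSN2, the partner of MSN4, named after its values were seen, did not pass (-0.22, edgeR adjusted p = 0.269), and passed as lower without WT replicate 2 (-0.39, 0.000852) and without replicate 2 of both strains (-0.40, 0.00174). HSF1, the heat shock factor gene, fell slightly (-0.26, edgeR adjusted p = 0.0364), a call lost when any library but WT replicate 2 was left out (0.0709 to 0.134).

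Of 12 other known targets of Msn2 and Msn4, 2 rose, 3 fell and 7 did not pass (median -0.39). Over all genes tested, 21.2% rose and 21.4% fell. CTT1, the cytosolic catalase, was at 57.3, 66.8 and 58.7 CPM in R256C, against 41.7, 28.7 and 30.7 CPM in WT (log2 fold change 0.86, edgeR adjusted p = 0.00261, SE 0.15), and SOL4 (0.89) rose as well. HSP26, a small heat shock protein, was at 21.2, 24.3 and 16.6 CPM in R256C, against 61.1, 42.0 and 64.5 CPM in WT (-1.42, SE 0.19, edgeR adjusted p = 0.000765). GRE3 (-0.71), an aldose reductase, fell. GPD1, of glycerol synthesis, fell too (-1.44), at 873, 763 and 615 CPM in R256C, against 2954, 807 and 2334 CPM in WT, where replicate 2 lay among the R256C libraries. WT replicate 2 was the lowest WT library for 11 of the 12 genes, against 47.1% of all genes tested. Without it 9 of 12 fell, beside 29.5% of all genes tested in that setting. The number that fell was also 9 without replicate 2 of both strains, beside 27.4% of all genes tested. The call of GPD1 (edgeR adjusted p = 0.0214) was lost without R256C replicate 1 (0.0567), 2 (0.0795) or 3 (0.0826) or WT replicate 3 (0.0660). That of SOL4 (0.0283), a gene of the pentose phosphate pathway, was lost without R256C replicate 2 (0.102), WT replicate 3 (0.0567) or replicate 2 of both strains (0.110).

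The genes whose profile over the 6 libraries lay nearest to that of TPS1 were MSC1 (root mean square log2 difference 0.10), HSP30 (0.10) and UGX2 (0.124), among tested genes with a mean of at least 10 CPM. MSC1 was at 192, 282 and 161 CPM in R256C, against 139, 82.3 and 116 CPM in WT, and HSP30, a membrane stress protein, at 91.6, 108 and 78.6 CPM in R256C, against 54.8, 35.3 and 52.6 CPM in WT. All 3 shared the order of TPS1 in WT, with replicate 2 lowest, and its peak in R256C replicate 2. The likeness is over 6 libraries and says nothing of function or control.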

How the data were processed

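Messenger RNA of 3 R256C and 3 WT cultures was sequenced from stranded, poly(A)-selected libraries, per the labels' protocols. The deposited table holds raw read counts per gene, made by the authors with TopHat, HTSeq and DESeq on build R64, per the submitters' processing notes, which give no versions. It has 7131 rows, of which 5 are summary rows that were left out. Of the uniquely aligned reads, 3.15 to 4.07% were assigned to no gene and 7.43 to 8.13% were ambiguous. The summary row for reads aligned to several places holds 53.1 to 57.2% of the whole table, so genes with near-identical copies may be undercounted. Counts were analysed in edgeR 4.0.16 (R 4.3.3): filterByExpr kept 6337 genes, TMM scaled the libraries, and the quasi-likelihood F test with Benjamini-Hochberg adjustment over all 6337 called genes at an adjusted p under 0.05, with genotype as the sole term. CPM are TMM-scaled, SEs derive from the F statistic, and levels between genes are per kb of coding length. Ratios and shares were tested by exact permutation over libraries, the shares being added after seeing the data. The fit was also run on simulated counts with known changes, at 1 fixed spread and with no library standing apart. That run checks the code and does not bear on the effect of WT replicate 2. The 15 alternatives included DESeq2 1.42.0, limma-voom (limma 3.58.1), other scalings and filters, and each library left out. AGGGG and TTCNNGAA were searched on both strands in the RefSeq R64 genome, which is the build named in those notes. Of 7126 gene rows, 6048 matched its annotation.

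The 10 genes and the other lists were chosen with earlier results of these data known. Named genes are all 10, those of each other list that passed, up to the 4 with the smallest p (all may be named for glycogen, glucose phosphorylation and marker genes), and the 3 nearest profiles to TPS1, NTH1 and PGM2. BCY1, SOL4, MSN2, FKS1, GSC2 and FKS3 were named after their values were seen. The values of 1 gene that the rule would name are not reported here. Same-numbered libraries of the strains did not deviate together, so replicate numbers were not used as pairs. The 10 genes had 292 to 19251 reads per library.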

Additional observations from a re-analysis of the deposited data

How the results depend on the processing

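Over the 15 alternatives, 132 of 150 values of the 10 genes kept direction and call, 4 lost the call, 4 gained it and 10 changed sign. TPS1 (0.61 to 1.15) and TPS2 (1.50 to 2.12) passed in all 15. The number of the 10 genes that fell ranged from 0 to 2 when 1 library was left out and was 2 without replicate 2 of both strains, an alternative chosen after seeing the data. NTH1 changed sign with library totals alone (0.072), a filter at 10 CPM in 3 libraries (0.0052) and protein-coding rows alone (0.00061), and ranged from -0.086 to 0.030 when 1 library was left out. ATH1 was 0.0089 with library totals alone. PGM1 was 0.070 with library totals alone and 0.088 without replicate 2 of both strains, and ranged from -0.10 to 0.094 when 1 library was left out. The log2 difference of PGM2 over PGM1 was -0.039 without replicate 2 of both strains. The cause of these changes was not tested. Library totals alone shifted the median log2 fold change of all genes by 0.098 and gave 1639 higher and 886 lower genes, so 64.9% of calls were higher against 49.8% with TMM. Over all genes, 1345 rose and 1358 fell, against 876 and 861 without WT replicate 3, 948 and 858 without R256C replicate 2, and 918 and 822 without R256C replicate 3. The counts were larger without WT replicate 2 (1875 and 1884) and without replicate 2 of both strains (1708 and 1744). With the replicate number as a block, 1217 rose and 1214 fell, and TPS1 (0.98), TPS2 (1.93), TPS3 (0.44) and UGP1 (-0.50) kept their calls. Of the other named genes, PIG2 (adjusted p = 0.0673), GAL10 (0.0655), CYR1 (0.0534), BCY1 (0.0654), HSF1 (0.0749) and SOL4 (0.0624) lost theirs under the block, and the protein kinase A and trehalase genes that rose numbered 2 in place of 4. The deviations of same-numbered libraries correlated at -0.11, -0.068 and -0.069. Under the block, the log2 difference of synthase over neutral trehalases had an exact p of 0.25, the smallest that 3 pairs allow.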

Other observations

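The genes with the profile nearest to that of NTH1 over the 6 libraries were ECM21 (root mean square log2 difference 0.023), HOS2 (0.032) and CTL1 (0.034). Nearest to PGM2 were YGL081W (0.094), DCS2 (0.105) and VID30 (0.113). VID30, of the complex that degrades gluconeogenic enzymes, was at 140, 173 and 134 CPM in R256C, against 135, 91.6 and 118 CPM in WT, with replicate 2 highest in R256C and lowest in WT as in PGM2.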
